A study of Arabidopsis thaliana with 12 samples.

Results

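The interaction between loss of RDR6 and loss of cytoplasmic RNA decay was measured for small RNA in Arabidopsis thaliana, with all 12 of the 12 libraries of the study. For each gene it is the log2 change from losing RDR6 in plants whose decay is defective, minus the log2 change from losing RDR6 in plants whose decay works. A value of 0 means that RDR6 loss had the same relative effect in both backgrounds. A negative value means that RDR6 loss lowered the small RNA of the gene more, or raised it less, when decay was defective, and a positive value means the opposite.

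RNA under 200 nt was sequenced from the aerial tissue of 18-day-old plants in 4 genotypes of 3 libraries each. Col-0 is the wild type. The double mutant carries ein5-1 and ski2-3, the single mutant carries rdr6-11, and the triple mutant carries rdr6-11, ein5-1 and ski2-3. The wild type and rdr6-11 therefore share intact decay, the double and the triple mutant share both decay alleles, and each mutant line is represented here by 1 allele of each gene. The labels describe the replicates as biological, and how many plants went into each library is not given in the sources used here. Because whole aerial tissue was used, fewer cells of a type and less small RNA per cell cannot be told apart.

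EIN5 (XRN4) is an exonuclease of the cytoplasm that removes uncapped RNA by digestion from the 5′ end, and SKI2 is the helicase that feeds RNA to the cytoplasmic exosome for decay from its 3′ end. RDR6 copies single-stranded RNA into double-stranded RNA, from which Dicer-like enzymes cut secondary siRNAs. An aberrant or cleaved RNA can enter either route. In wild-type leaves the best known RDR6 products are the trans-acting siRNAs of the TAS loci and the phased siRNAs of a few gene families, and RNA cut by a 22-nt miRNA is a preferred template. Most miRNA targets in plants are cut by miRNAs of 20 or 21 nt and give few secondary siRNAs while decay works.

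The mature miRNAs whose targets are compared below are shown so that the length classes and their sites can be read side by side. Capitals mark the seed, bases 2 to 8 from the 5′ end. The first 4 have 22 nt, the following 3 have 20 or 21 nt, and miR390 (21 nt) starts siRNA production at TAS3 loci. The last pair come from MIR genes with some of the smallest p-values for the interaction. Sequences and positions are from the RefSeq annotation of TAIR10.1.
miR173: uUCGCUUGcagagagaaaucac
miR828: uCUUGCUUaaaugaguauucca
miR393: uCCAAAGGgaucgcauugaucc
miR472: uUUUUCCUacuccgcccauacc
miR156: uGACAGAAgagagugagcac
miR166: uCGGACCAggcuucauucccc
miR167: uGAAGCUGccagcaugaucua
miR390: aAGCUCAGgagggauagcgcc
miR408: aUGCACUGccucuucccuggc
miR398: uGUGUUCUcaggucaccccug
The mature sequences lie at chr3:8236161-8236182 on the plus strand for miR173 and chr2:19319933-19319953 on the plus strand for miR408. No 2 of these 10 miRNAs share a seed.

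For 7 of the targets discussed below, the best site for the miRNA in the gene's exons is shown, with capitals at bases complementary to the miRNA. They show that the sites of both length classes pair along most of the miRNA. A match of letters is a description and was not tested as a cleavage site.
TAS1C (miR173): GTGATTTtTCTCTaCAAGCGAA
TAS4 (miR828): TGGAATACTCATTTgAGCAAGA
AFB2 (miR393): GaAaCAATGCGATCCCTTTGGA
AT5G43740 (miR472): GGTATGGGgGGAGTAGGAAAAA
SPL13A (miR156): GTGCTCtCTCTCTTCTGTCA
PHB (miR166): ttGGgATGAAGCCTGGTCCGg
ARF6 (miR167): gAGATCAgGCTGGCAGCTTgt
The TAS1C site lies at chr2:16537890-16537911 on the minus strand and pairs at 20 of 22 bases. The ARF6 site lies at chr1:10686478-10686498 on the minus strand and pairs at 17 of 21 bases, and 23 loci of 30395 searched held a miR167 site at least as good by the same score. The PHB site crosses a splice junction, so its ends lie at chr2:14642530-14642666 on the minus strand.

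The libraries held 2358724 to 2909767 counts, of which nuclear rRNA genes took 50.8% to 56.6%. No library had more than 7 counts for EIN5, 4 for SKI2 or 5 for RDR6, too few to serve as a check of genotype. TAS loci could for rdr6-11, while ein5-1 and ski2-3 were left without such a check. The TAS share of counts was 0.355% to 0.375% in Col-0 libraries and 0.495% to 0.735% in those of ein5-1 ski2-3. In rdr6-11 libraries it was 0.00513% to 0.00547%, and in triple-mutant libraries 0.0108% to 0.0118%. Replicates 1 and 2 of ein5-1 ski2-3 differed by no more than the sampling noise over protein-coding genes (mean chi-square 1.00 over 3814) and little over all genes with distinct profiles (1.04 over 6208), and were counted as 1 sample, so n is 2 in that group and 3 in the others. The pairs within the other genotypes stood at 1.02 to 1.34 and 1.26 to 2.74, and Col-0 replicates 2 and 3, at 1.02 and 1.54, were kept apart. Replicate 3 of ein5-1 ski2-3 stood apart from that pair, with a mean chi-square of 2.08 and 2.03. MIR genes, for example, held 3.69% and 3.67% of counts in replicates 1 and 2 and 2.43% in replicate 3.

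**Figure D1:**
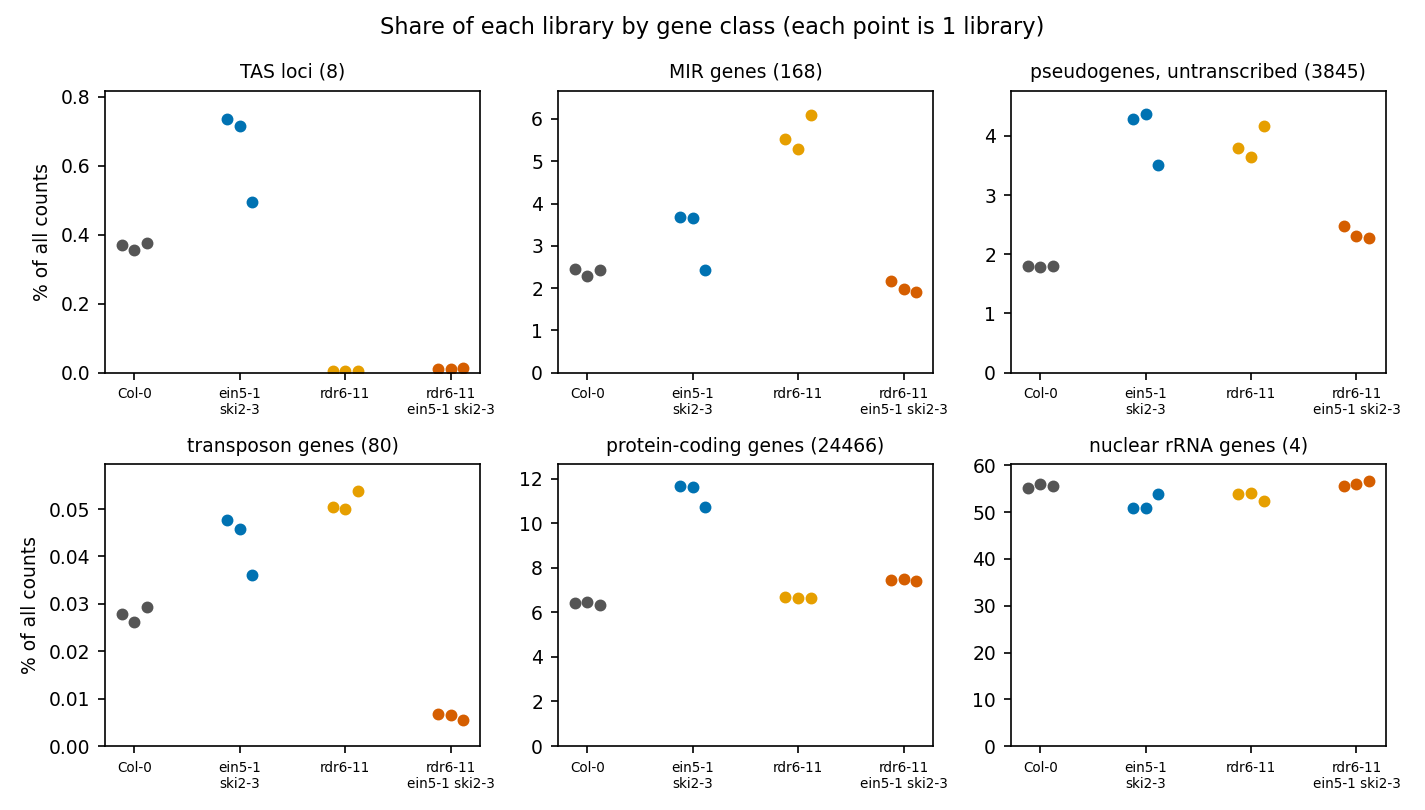
Percent of all counts (vertical axes, from 0) assigned to 6 gene classes, with the number of genes in the table in brackets; each point is 1 library and the 4 genotypes are on the horizontal axis. The transposon class was at 0.00548% to 0.00678% in the triple mutant and at 0.0262% or more in every other library. Much of its count outside the triple mutant came from 4 retrotransposon-like genes, so the share does not describe the class as a whole. AT3G44570 alone had 917, 1225 and 1711 counts over Col-0, ein5-1 ski2-3 and rdr6-11, and 5 over the triple mutant. MIR genes were highest in rdr6-11, at 5.29% to 6.09%.

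RDR6 loss had unequal effects in the 2 backgrounds at 3717 of 7219 genes tested (51.5%), by edgeR's quasi-likelihood test with a Benjamini-Hochberg adjusted p under 0.05. The interaction was negative at 2286 genes (31.7%) and positive at 1431 (19.8%), and at least 2-fold at 2125 and 1082 of them. The median over all genes was -0.31 on the log2 scale. That balance depended on how libraries were scaled to each other. The negative and positive counts were 2091 and 1686 with RLE size factors, 3431 and 331 scaled to total counts, 433 and 2624 scaled to the summed counts of MIR genes, and 1790 and 1971 with TMM computed without structural and organelle RNA. The median moved to -0.18, -1.21, 0.61 and 0.00 in the same order. Without ein5-1 ski2-3 replicate 3 the counts were 1945 and 1921 and the median was -0.07, and without replicates 1 and 2 of that group they were 1585 and 1382 with a median of -0.10. Without rdr6-11 replicate 2 they were 1981 and 1676, with a median of -0.13. The size of a gene's interaction relative to the median is therefore given beside group values, and each group is also described by the genes that kept their call under all 5 scalings, which were 433 negative (6%) and 331 positive (4.59%). Of these, 416 and 325 also kept the call without each library in turn.

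The interactions took several shapes, which were read from the separate effects in the 2 backgrounds, estimated from libraries that do not overlap. Shapes were assigned with TMM only. A call kept under all 5 scalings refers to the sign of the interaction, and the shapes were not checked under the other scalings. With decay intact RDR6 loss lowered 1104 genes (15.3%) and raised 1541 (21.3%), and with decay defective it lowered 1946 (27%) and raised 1037 (14.4%). In the first shape RDR6 loss gave no call with decay intact and lowered small RNA with decay defective. It held 671 negative genes, 122 of them under all 5 scalings, and 101 of those 122 were protein-coding. A second shape, raised with decay intact and lowered with decay defective, held 641, of which 286 kept the call under all 5 scalings, 59 of them protein-coding. The next, raised with decay intact and not called with decay defective, held 768, but only 21 kept the call under all 5 scalings. Among positive genes, 553 were lowered with decay intact and raised with decay defective (298 under all 5 scalings), 347 were only raised with decay defective (23), and 331 were only lowered with decay intact (8).

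**Figure D2:**
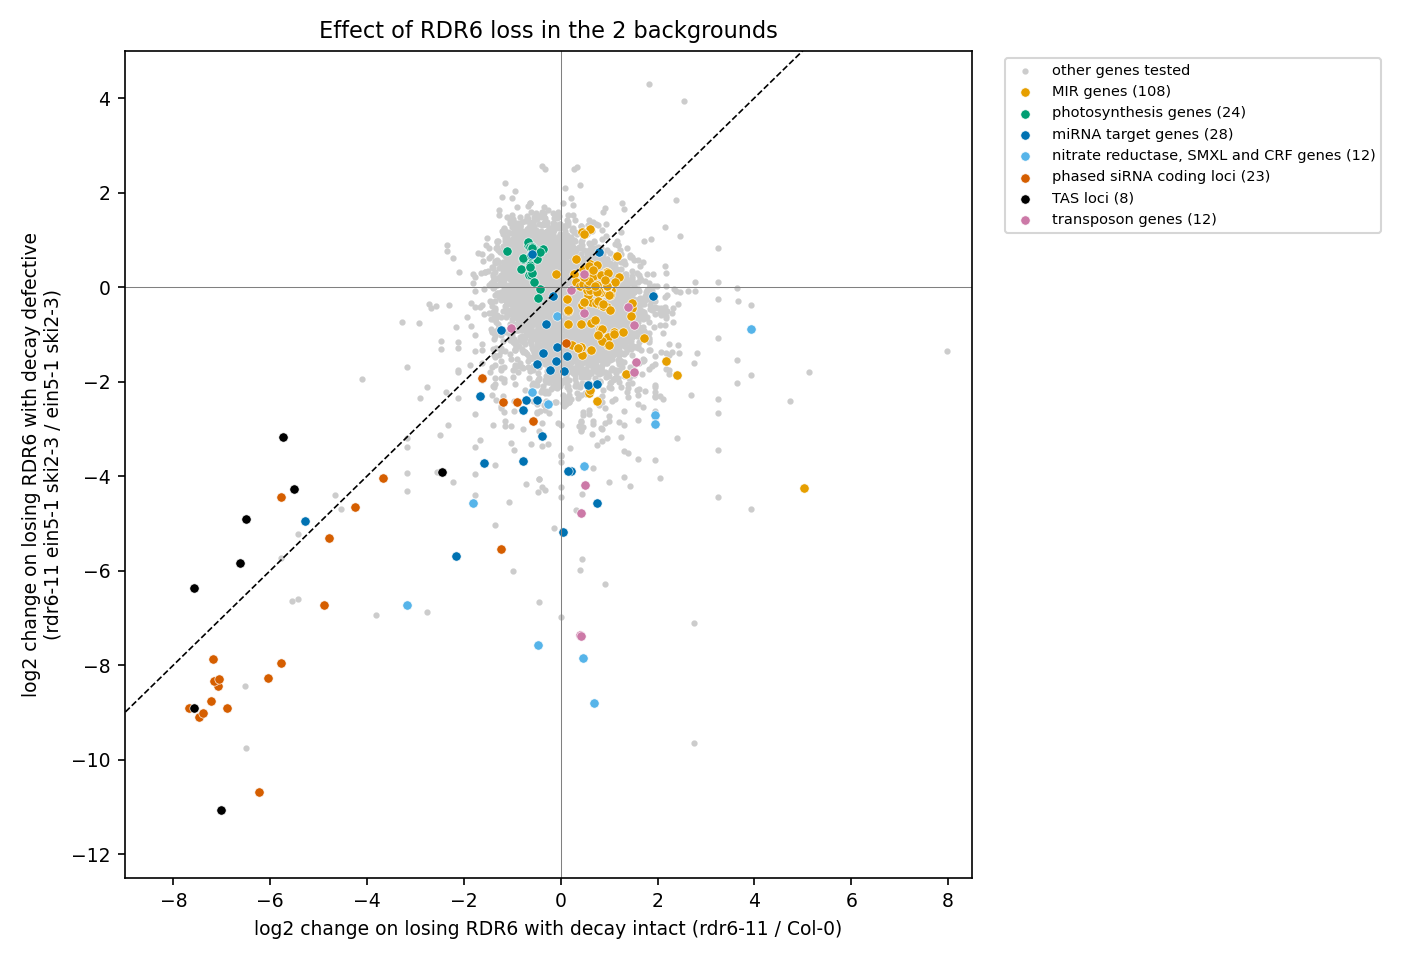
Log2 change on losing RDR6 with decay intact (horizontal axis) against the change with decay defective (vertical axis) for the 7219 genes tested; grey points are other genes, coloured points are the listed groups with their size, and the dashed line marks an interaction of 0. SMXL5 lies at 0.69 and -8.81, far below the line, while photosynthesis genes lie above it, with group medians of -0.62 and 0.63.

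Of the coding genes of the first shape, those with the smallest p-values and members of the gene lists are described here. SMXL5 (AT5G57130, chr5:23144947-23149615, plus strand), which acts in phloem development, had 1, 4 and 1 counts in Col-0, 3382, 3454 and 2833 in ein5-1 ski2-3, 4, 4 and 6 in rdr6-11, with 5, 4 and 6 in the triple mutant. Only the 3 ein5-1 ski2-3 libraries were high, and the other 9 overlapped near 0. The ratio of ein5-1 ski2-3 to the triple mutant was 475 in normalised counts, with a 95% counting interval of 288 to 848, while that of rdr6-11 to Col-0 was 1.65 with an interval of 0.594 to 5.22. The log2 interaction was -9.51 ± 0.78 (SE; edgeR quasi-likelihood adjusted p = 1.74e-14), and it held under every scaling and without each library.

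GAE6 (AT3G23820), an epimerase that makes a sugar nucleotide for pectin, kept a measurable level everywhere. Its normalised level was 17.0, 18.3 and 20.97 CPM in Col-0, against 646, 625 and 517 CPM in ein5-1 ski2-3, 15.6, 17.7 and 13.5 CPM in rdr6-11, and 59.2, 56.7 and 56.8 CPM in the triple mutant. The double mutant stood highest, the triple mutant was next, and the 2 genotypes with intact decay overlapped at the bottom. RDR6 loss changed it by -0.27 on the log2 scale with decay intact (edgeR adjusted p = 0.278) and by -3.32 with decay defective, an interaction of -3.06 ± 0.22 (SE; adjusted p = 1.7e-16). BRI1 (AT4G39400), the brassinosteroid receptor, had the same order of genotypes, at 7.72 ± 1.37 CPM (SD, n = 3), 260 ± 46.3 (n = 2), 6.11 ± 1.82 (n = 3) and 13.2 ± 1.81 (n = 3) for Col-0, the double, the single and the triple mutant. Its interaction was -3.97 ± 0.35 (SE; edgeR adjusted p = 1.64e-13).

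Among nitrate reductase and SMXL genes, 8 of 10 could be tested, 5 of them by reaching the count threshold in the double mutant only, and 6 had a negative interaction against 31.7% of all genes, 4 of them (NIA1, NIA2, SMXL4 and SMXL5) under all 5 scalings. The list was chosen from earlier work on the same mutants, so its direction is not independent evidence. The median log2 interaction was -3.51, or -3.20 relative to that of all genes, and -2.49 with the 1 member that had a group at 0 counts set at its bound. NIA1 (AT1G77760) and NIA2 (AT1G37130) encode nitrate reductase, the first enzyme of nitrate use. NIA1 stood at 120, 117 and 92.2 CPM in ein5-1 ski2-3 and at 7.31, 6.71 and 9.09 CPM in the triple mutant, above the 0.477 to 3.40 CPM of Col-0 and the 2.17 to 3.75 CPM of rdr6-11. NIA2 had 257, 248 and 210 CPM in ein5-1 ski2-3 and 46.1, 37.3 and 40.9 CPM in the triple mutant, against 19.9 to 22.4 CPM in Col-0 and 13.5 to 19.9 CPM in rdr6-11. For both genes the triple mutant lay between the double mutant and the pair with intact decay, which overlapped for NIA1. For NIA2 the lowest Col-0 library, at 19.94 CPM, lay just above the highest of rdr6-11, at 19.89 CPM. The interactions were -4.27 ± 0.55 (SE; edgeR adjusted p = 6.73e-09) for NIA1 and -2.22 ± 0.23 (adjusted p = 1.34e-11) for NIA2.

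SMXL4 (AT4G29920), which acts with SMXL5 in the phloem, had 491, 512 and 409 counts in ein5-1 ski2-3 and 3, 3 and 5 counts in all libraries of Col-0, rdr6-11 and the triple mutant summed by genotype. The double mutant exceeded the triple by a ratio of 208 (95% counting interval 88.9 to 641). Its fitted interaction of -7.11 (edgeR adjusted p = 0.000226) rests on 3 counts in each genotype with intact decay, where a fitted value depends on the prior count. Of the 6 genes listed as cytokinin response factors, transcription factors that act downstream of cytokinin, 4 could be tested, 3 of which reached the count threshold in the double mutant only, and 2 were called negative (31.7% of all genes were), CRF2 and CRF6, with 1 left without replicates 1 and 2 of ein5-1 ski2-3. CRF6 had 42, 48 and 30 counts in ein5-1 ski2-3, 11, 15 and 21 in the triple mutant, 5 over all of rdr6-11 and 0 over Col-0, so its fitted value is no bound. With the 3 members that had a group at 0 counts set at their bounds, the median of the 4 was -2.39. CRF2 (AT4G23750) had 1476, 1425 and 1139 counts in ein5-1 ski2-3 and at most 6 counts in any other library. Its ratio of double to triple mutant was 248 (142 to 480), and it was the 1 CRF gene called under all 5 scalings.

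Some genes of this kind, such as SMXL5 and CRF2, entered the test only because of the double mutant, while NIA1, NIA2 and CRF6 did not. Of the 7219 genes tested, 1060 reached the count threshold in ein5-1 ski2-3 only, among them 271 of the 2286 negative genes. Of the 4201 protein-coding genes tested 942 did so, among them 215 of the 670 negative ones (15.9% of 4201). With the filter placed on the mean over all libraries instead, 1965 genes were negative and 1260 positive. A search made after the values were seen asked for genes with more than 8 times the counts of each other genotype and at least 60 counts. There were 86 in ein5-1 ski2-3, 84 of them protein-coding, and 0 in each other genotype.

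**Figure D3:**
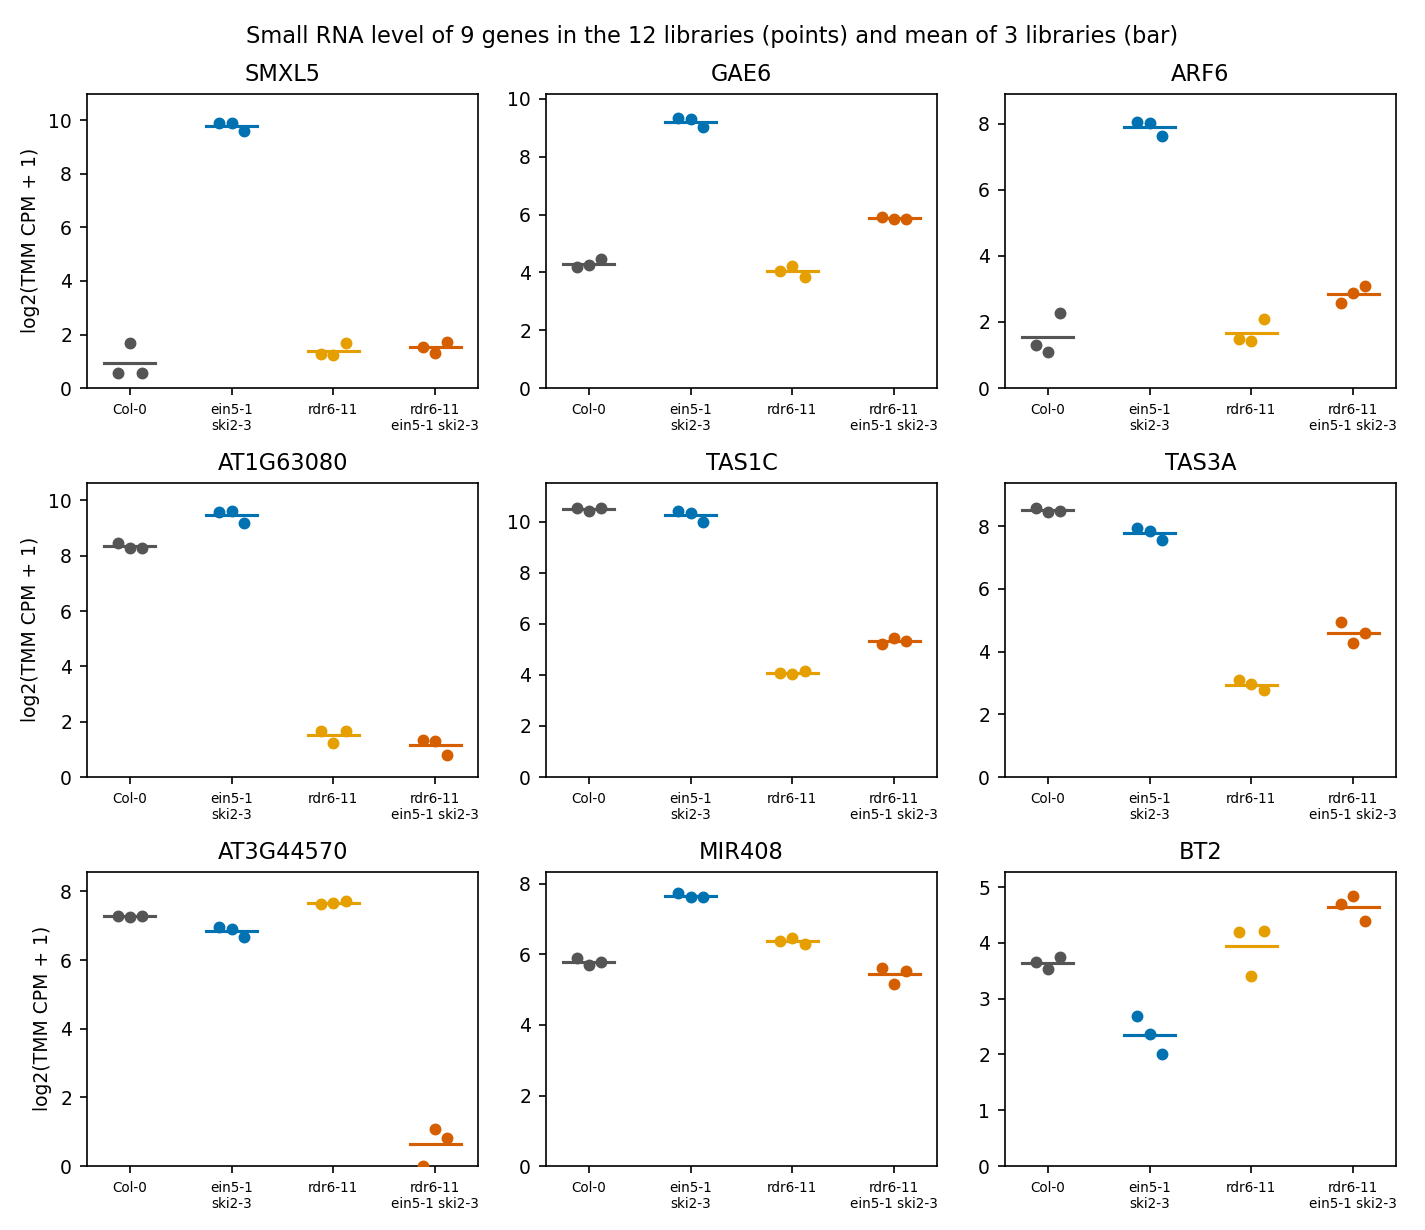
Level of 9 genes as log2(TMM CPM + 1) on the vertical axes, from 0, in the 4 genotypes; points are the 12 libraries and bars the mean of 3 libraries. SMXL5 and ARF6 are high in ein5-1 ski2-3 alone, while GAE6 is highest there and next highest in the triple mutant. TAS1C and TAS3A are low in both rdr6-11 genotypes but higher in the triple mutant than in rdr6-11, and AT3G44570 is low in the triple mutant alone.

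Among the targets of miRNAs the called interactions were mostly negative. Of 81 listed miRNA target genes, 28 could be tested, and 15 had a negative interaction (53.6%, against 31.7% of all genes), 12 were not called and 1 had a positive one, CSD1, at 1.29. Of the 15, 7 were negative under all 5 scalings. Without each single library 12 to 15 were called, and without replicates 1 and 2 of ein5-1 ski2-3 together 10. The median was -1.74, or -1.43 relative to all genes. Of the 28 genes, 13 reached the count threshold in the double mutant only, so these counts describe the genes that passed and lend no support.

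ARF6 (AT1G30330), an auxin response factor cut by miR167, had 1.46, 1.11 and 3.81 CPM in Col-0, compared with 265, 261 and 196 CPM in ein5-1 ski2-3, 1.81, 1.70 and 3.28 CPM in rdr6-11, and 4.998, 6.34 and 7.58 CPM in the triple mutant. Only ein5-1 ski2-3 was high, and the triple mutant lay just above the 2 genotypes with intact decay, which overlapped. RDR6 loss changed it by 0.04 with decay intact (adjusted p = 0.961) and by -5.18 with decay defective, so its interaction was -5.23 ± 0.61 (SE; edgeR adjusted p = 4.43e-10). The class III HD-ZIP genes, which set leaf polarity and vascular patterning and are cut by miR166, moved alike. PHB (AT2G34710) stood at 60.4, 57.8 and 49.4 CPM in ein5-1 ski2-3 and at 2.69, 2.61 and 5.68 CPM in the triple mutant, with 0.973 to 1.43 CPM in Col-0 and 0.729 to 1.81 CPM in rdr6-11. Its interaction was -4.03 ± 0.74 (SE; edgeR adjusted p = 1.24e-05). ATHB15 was at -2.77 ± 0.69 (adjusted p = 0.000759), and ATHB8 and PHV were also called, but on 2 and 3 counts in all of Col-0. For PHV the call was lost without rdr6-11 replicate 1, where the interaction was -2.57. REV, the fifth gene of the family, was at -2.14 and was not called.

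SPL13A and SPL13B, near-identical flowering-time regulators cut by miR156, had interactions of -2.64 and -2.80 (edgeR adjusted p = 0.00054 and 0.000342), and their reads cannot be assigned to one copy. SPL2, another miR156 target, had the opposite history. It had 47.7, 47.8 and 48.1 CPM in Col-0, against 63.8, 75.6 and 48.3 CPM in ein5-1 ski2-3, 1.45, 1.36 and 0.729 CPM in rdr6-11, and 1.15, 2.24 and 2.27 CPM in the triple mutant. Both genotypes without RDR6 were low whatever the state of decay, and its interaction of 0.33 ± 0.56 (SE) was not called (edgeR adjusted p = 0.695). Of 3 genes of the small RNA machinery that are themselves miRNA targets, 2 were called. AGO1, the main slicer of miRNA targets, was at -1.67 (edgeR adjusted p = 0.00086) and DCL1, which cuts miRNA precursors, at -1.60 (adjusted p = 0.00382), while AGO2, another Argonaute gene, was at -1.52 ± 1.16 (SE) and was not called (adjusted p = 0.27). PHO2, a regulator of phosphate transport, was at -1.49 (adjusted p = 0.00193). AGO1, DCL1 and PHO2 were not called when libraries were scaled to MIR genes.

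The targets were also grouped by the length of the miRNA. Among 28 tested targets of 20- or 21-nt miRNAs outside the TAS loci, 2 (SPL2 and TCP3) were lower in rdr6-11 than in Col-0, and 24 were lower in the triple mutant than in ein5-1 ski2-3, with median log2 changes of -0.26 and -2.06. Of all genes tested, 15.3% and 27% were lower in the same comparisons. Among 12 tested targets of 22-nt miRNAs, 9 were lower with decay intact and 12 with decay defective, with medians of -4.88 and -4.36. The median interaction was -1.74 for the shorter and -0.33 for the longer class. Leaving out the 5 TAS loci, the 7 remaining 22-nt targets had 4 and 7 lower calls, with medians of -1.62 and -2.83 and a median interaction of -0.40. The filter bears on this. Of the 28 targets of shorter miRNAs, 13 reached the count threshold in the double mutant only, and the median was 10 counts over all of Col-0, where a fall could hardly be called. For the longer class these were 3 of 12 and a median of 68.5 counts. Of the 15 shorter-class targets that reached the threshold elsewhere too, 2 were lower with decay intact and 11 with decay defective, and of the 9 in the longer class 8 and 9. Members share their miRNA and often their family, so these counts are a description and the difference between the length classes was not tested.

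**Figure D4:**
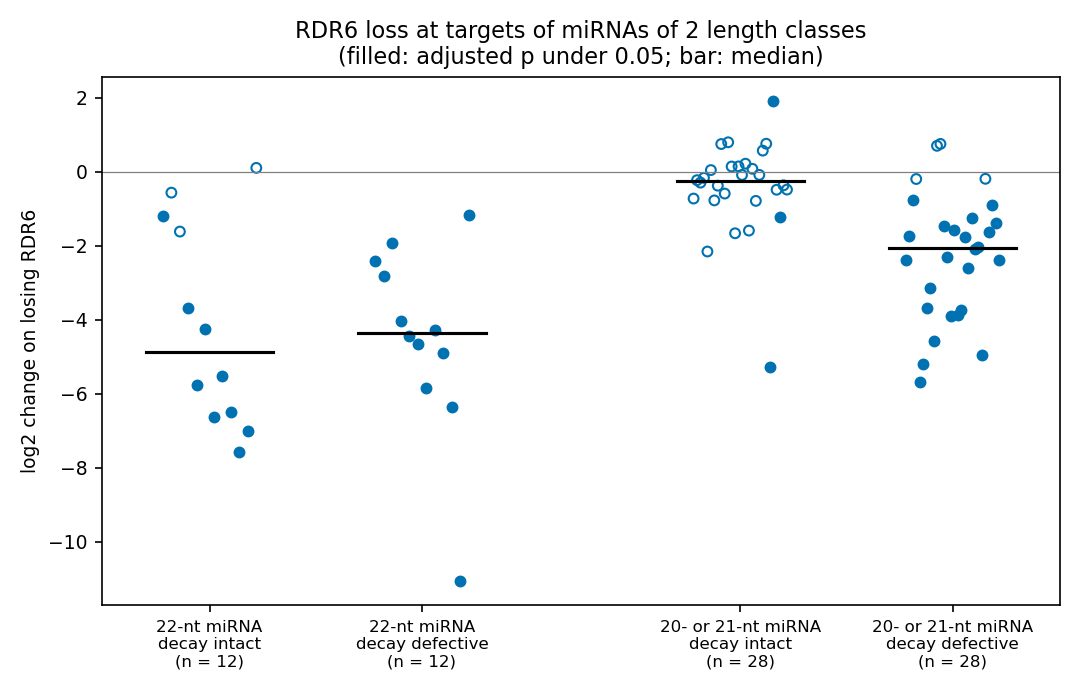
Log2 change on losing RDR6 (vertical axis) for tested targets of 22-nt miRNAs (n = 12) and of 20- or 21-nt miRNAs outside the TAS loci (n = 28), with decay intact or defective; each point is a gene, filled where the edgeR adjusted p was under 0.05, and bars are medians. The shorter class sits near 0 with decay intact (median -0.26) and below it with decay defective (median -2.06).

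Coding genes known to give phased siRNAs were in most cases lower without RDR6 in both backgrounds. Of 28 listed, 23 could be tested, 14 were negative (60.9%, against 31.7% of all genes) and 0 positive, by edgeR's quasi-likelihood test, and 4 of the 23 reached the count threshold in the double mutant only. The positive count was 0 under every scaling as well. RDR6 loss lowered 19 of the 23 with decay intact and 23 of 23 with decay defective, with median log2 changes of -5.78 and -7.88. Among all genes tested the lowered shares were 15.3% and 27%. The median interaction was -1.35, or -1.04 relative to all genes, and -1.28 with the 1 member that had a group at 0 counts set at its bound. The 14 calls became 7 without replicates 1 and 2 of ein5-1 ski2-3 and 8 without rdr6-11 replicate 2, and 5 held under all 5 scalings: RPF2, AT1G62860, AT1G63400, AT1G63630 and MYB75.

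Most of these loci encode pentatricopeptide repeat proteins, which process organelle transcripts, and share sequence with each other. RPF2 (AT1G62670), which is needed for trimming the 5′ ends of mitochondrial transcripts, had 232, 208 and 213 CPM in Col-0, compared with 548, 535 and 417 CPM in ein5-1 ski2-3, 3.98, 4.09 and 3.64 CPM in rdr6-11, and 1.54, 3.36 and 0.758 CPM in the triple mutant. Defective decay went with a higher level where RDR6 was present, and the triple mutant lay below rdr6-11 without overlap. Its interaction was -2.17 ± 0.43 (SE; edgeR adjusted p = 3.7e-05). AT1G63400 had 301 ± 25.6 CPM (SD, n = 3) in Col-0, 647 ± 147 CPM (n = 2) in ein5-1 ski2-3, 9.76, 8.52 and 12 CPM in rdr6-11 and 6.06 ± 1.64 CPM (SD, n = 3) in the triple mutant. This was an interaction of -1.84 ± 0.28 (SE; edgeR adjusted p = 4.75e-07). AT1G62860 kept more small RNA without RDR6, at 101, 117 and 130 CPM in rdr6-11 and 43.5, 38.8 and 35.6 CPM in the triple mutant, against 206 to 228 CPM in Col-0 libraries and 189 to 237 CPM in those of ein5-1 ski2-3. Here the 2 genotypes with RDR6 overlapped and the 2 without it did not. AT1G63630 had 8 counts over rdr6-11 and 0 over the triple mutant, which was at least 183-fold lower than ein5-1 ski2-3 with a floor of 3 counts over the group.

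MYB75, an activator of anthocyanin genes that TAS4-derived siRNAs target, had 90, 116 and 76 counts in ein5-1 ski2-3 and at most 4 in any other library. Its call was lost without rdr6-11 replicate 1. The auxin receptor genes TIR1, AFB2 and AFB3, cut by miR393, were negative at -1.28, -1.22 and -2.26 (edgeR adjusted p = 0.0326, 0.0241 and 0.000744), and none of these 3 calls held when libraries were scaled to MIR genes. TIR1 kept its call under 2 of the 5 scalings, AFB2 under 3 and AFB3 under 4. TIR1 and AFB2 were also not called by DESeq2, or without rdr6-11 replicate 2 or 3. TIR1 lost the call without other single libraries too, among them Col-0 replicates 1 and 3. Its value was -0.79 without rdr6-11 replicate 2. The NB-LRR disease-resistance genes of the miR472 group gave no call, for example AT5G43740 at -0.40 ± 0.83 (SE; adjusted p = 0.704), where RDR6 loss changed small RNA by -4.25 on the log2 scale with decay intact and by -4.65 with decay defective.

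The TAS loci, non-coding RNAs dedicated to trans-acting siRNAs, mostly went the other way. Of 8 tested, 5 were positive against 19.8% of all genes, 1 was negative and 2 were not called, with a median of 1.00, or 1.31 relative to all genes. The median was 1.22 with the 1 member that had a group at 0 counts set at its bound, and 0.09 scaled to total counts. All 8 were lowered by RDR6 loss in both backgrounds. TAS3A (AT3G17185, chr3:5861491-5862437, plus strand), whose siRNAs restrain auxin response factors, had 378, 351 and 355 CPM in Col-0, against 245, 227 and 188 CPM in ein5-1 ski2-3, 7.59, 6.82 and 5.83 CPM in rdr6-11, and 29.6, 18.3 and 23.1 CPM in the triple mutant. The 4 genotypes did not overlap, and the residual level without RDR6 was higher when decay was defective. Its interaction was 2.56 ± 0.24 (SE; edgeR adjusted p = 7.71e-13). TAS1C (AT2G39675), a source of siRNAs against pentatricopeptide repeat genes, had 15.9, 15.3 and 16.8 CPM in rdr6-11 and 35.8, 42.5 and 38.7 CPM in the triple mutant, from 1442 ± 76.6 CPM (SD, n = 3) in Col-0 and 1170 ± 241 CPM (n = 2) in ein5-1 ski2-3. Its interaction was 1.58 ± 0.18 (SE; edgeR adjusted p = 3.59e-10).

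TAS3A and TAS1C kept a positive call under all 5 scalings. TAS1A (0.78), TAS1B (1.24) and TAS2 (1.21) were positive by the same test but were not called scaled to total counts, where TAS1A turned to -0.12. The interaction is relative, and at TAS1B and TAS2 the sign differed on the linear scale: TAS1B fell by more CPM with decay defective (from 325 to 16.8) than with decay intact (from 283 to 6.16). TAS4, the negative locus, had 1410, 1452 and 1151 counts in ein5-1 ski2-3, 82, 45 and 87 in Col-0, 2 over all of rdr6-11 and 1 over all of the triple mutant, so its interaction of -4.06 (edgeR adjusted p = 0.043) rests on 3 counts. It was not called without ein5-1 ski2-3 replicate 3 (adjusted p = 0.0516) and in 8 other settings. The auxin response factor genes ARF2, ARF3 and ARF4, cut by TAS3 siRNAs, were lowered by RDR6 loss in both backgrounds. None of them was called for the interaction by edgeR, at 0.29, 0.63 and 0.57 (adjusted p = 0.443, 0.265 and 0.247), while all 3 were positive when scaled to MIR genes.

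The smallest p-values of all belonged to small RNA that was lost only in the triple mutant. AT3G44570 (chr3:16158405-16159835, plus strand), annotated as retrotransposon ORF-1 protein-like, had 321, 271 and 325 counts in Col-0, 436, 422 and 367 in ein5-1 ski2-3, 551, 589 and 571 in rdr6-11, but 0, 3 and 2 in the triple mutant. Neither the loss of decay nor the loss of RDR6 alone lowered it to that level, and the triple mutant did not overlap any other genotype. RDR6 loss changed it by 0.40 with decay intact (adjusted p = 0.00184) and by -7.37 with decay defective, an interaction of -7.77 ± 0.29 (SE; edgeR adjusted p = 1.08e-27). The ratio of rdr6-11 to the triple mutant was 321 in normalised counts (95% counting interval 137 to 990).

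A search made after these values were seen, for genes with under an eighth of the counts of each other genotype where all others had at least 30, found 4 genes in the triple mutant and 0 in each other genotype. All 4 carry the same retrotransposon annotation. AT3G44580 (chr3:16160338-16161837, minus strand) had 597, 774 and 1130 counts over Col-0, ein5-1 ski2-3 and rdr6-11 and 3 over the triple mutant, a ratio of rdr6-11 to triple of 353 (121 to 1716). AT3G30820 (chr3:12529843-12531235, plus strand) had 185, 257, 370 and 10 counts in the same order. AT2G14000 (chr2:5884600-5885985, minus strand) had 180, 234, 340 and 6 counts. Their interactions were -7.81, -4.68 and -5.19, and all 4 genes kept the call under every scaling and without each library. In all 4 the level in rdr6-11 exceeded that in Col-0, by 1.32- to 1.41-fold in normalised counts.

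The 4 genes are not full copies of each other. AT3G44570 and AT3G44580 lie 502 bp apart on opposite strands and share 220 windows of 21 nt, all in the sense of both genes, which is 15.6% of the windows of AT3G44570. The other pairs shared 1.28% to 5.42%. One run of 21 nt is shown because it is present in all 4 genes in their sense direction and at no other of the positions searched in the 5 nuclear chromosomes of TAIR10.1. It lies at chr3:16159185-16159205 on the plus strand in AT3G44570 and at chr3:16160702-16160722 in AT3G44580, chr3:12529989-12530009 in AT3G30820 and chr2:5885618-5885638 in AT2G14000.
Run shared by the 4 genes: tgtgaaggagttcattgccac
The table does not say which reads were counted, so which part of the genes the small RNA came from was not tested, and reads matching several of the genes cannot be assigned to one of them. Among the 80 genes put in the transposon class by words in their annotation, 12 could be tested and 8 were negative (31.7% of all genes were). Of the 8, 5 were negative under all 5 scalings: these 4 and AT2G13450. The class words take in these 4 genes, which were picked by their values, so its count is a description and no separate result. AT2G13450 stood at 1.17, 3.61, 3.47 and 1.01 CPM in Col-0, the double, the single and the triple mutant.

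MIR genes, the sources of miRNA precursors, rose with RDR6 loss while decay worked and did not when it was defective. Of 108 tested, 86 were higher in rdr6-11 than in Col-0 and 0 lower, while 8 were higher and 36 lower in the triple mutant than in ein5-1 ski2-3, with median log2 changes of 0.76 and -0.10. Among all genes tested, 21.3% were higher and 15.3% lower in the first comparison, and 14.4% and 27% in the other. The interaction was negative at 78 (72.2%, against 31.7% of all genes) and positive at 4 (against 19.8%), with a median of -0.93, or -0.62 relative to all genes. Without replicates 1 and 2 of ein5-1 ski2-3 there were 50 negative calls. When libraries were scaled to MIR genes themselves the median was 0.01, with 24 negative and 12 positive, so a change of the class as a whole and a change of everything else cannot be told apart by these counts.

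The 24 MIR genes that were negative under all 5 scalings departed from the rest of their class. MIR408, a copper-responsive miRNA gene, had 58.8, 50.6 and 53.9 CPM in Col-0, compared with 214, 198 and 195 CPM in ein5-1 ski2-3, 82.5, 86.6 and 77.6 CPM in rdr6-11, and 48.4, 34.7 and 45.1 CPM in the triple mutant. The double mutant was far above the others and the triple mutant was lowest, without overlap. Its interaction was -2.82 ± 0.17 (SE; edgeR adjusted p = 7.25e-19). MIR398b and MIR398c, near-identical genes whose miRNA also responds to copper and silences copper proteins, were at -1.66 and -1.65 (adjusted p = 1.06e-14 and 1.11e-14). The reads of MIR398b cannot be told from those of AT5G14550, which overlaps it and had the same value of -1.66. MIR156c, a gene of the juvenile-phase miRNA miR156, was at -1.94 ± 0.16 (adjusted p = 4.41e-14), and MIR156a and MIR156d, MIR157a and MIR157c, MIR393a and MIR393b and MIR396b were in the same set. The 4 positive members were MIR169d, MIR169e, MIR169f and MIR169g, named after their values were seen. They stood at 0.62 to 0.73 by edgeR's test, were higher without RDR6 in both backgrounds, and lost the call under at least 1 scaling.

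Untranscribed pseudogenes resembled the MIR genes. How many of them derive from transposable elements was not determined here. Of 1853 tested, 1430 were negative (77.2%, against 31.7% of all genes) and 10 positive, with a median of -1.45, or -1.14 relative to all genes. RDR6 loss raised 1210 of them and lowered 9 with decay intact, and raised 15 and lowered 672 with decay defective. Among all genes tested those shares were 21.3% and 15.3%, then 14.4% and 27%. Scaled to MIR genes 223 were negative and 20 positive, with a median of -0.51, so the negative direction of the median held under each scaling while the count depended on it. Of single genes outside these classes, AT2G08986, a protein-coding gene of no stated function here, was at -1.84 ± 0.13 (SE; edgeR adjusted p = 1.99e-16), with 396, 417 and 403 CPM in Col-0, against 597, 605 and 599 CPM in ein5-1 ski2-3, 660, 723 and 824 CPM in rdr6-11, and 343, 266 and 306 CPM in the triple mutant. The double mutant and rdr6-11 were both above Col-0, and the triple mutant was below it, without overlap.

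**Figure D5:**
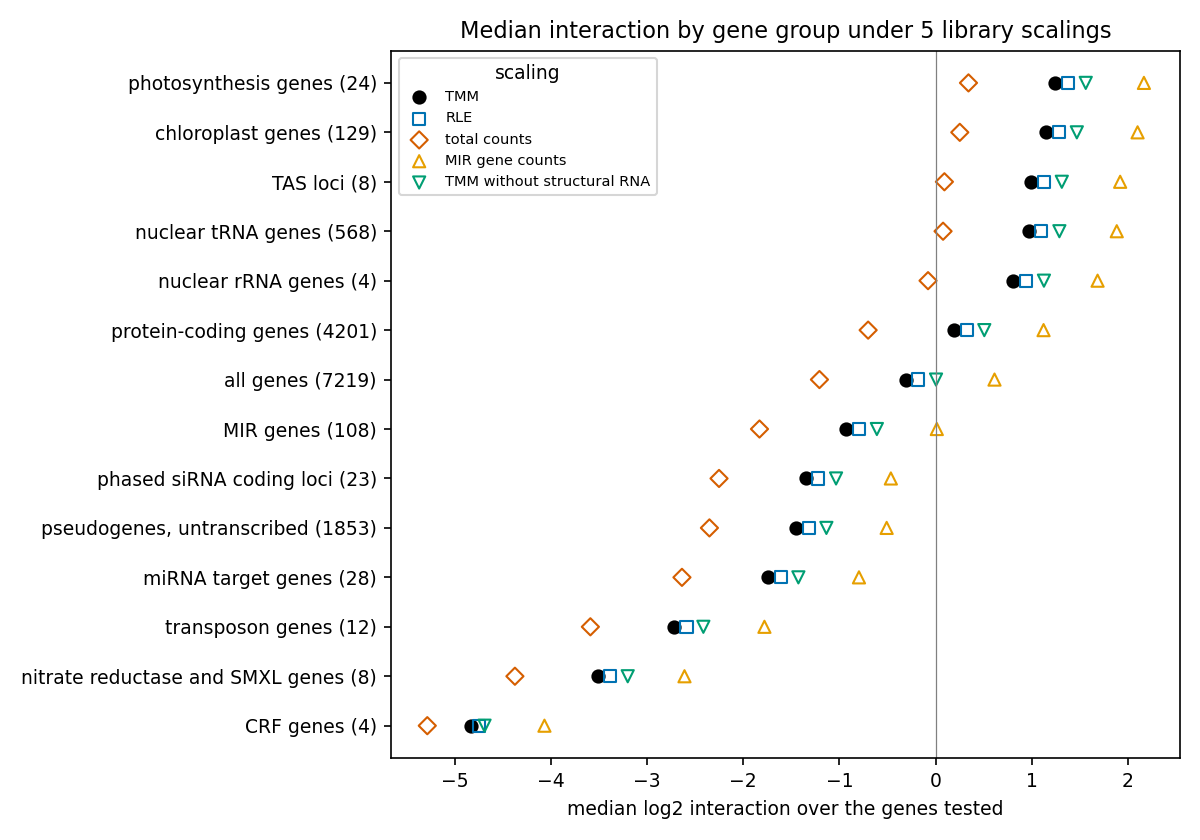
Median log2 interaction over the tested genes of 14 groups (number tested in brackets) under 5 ways of scaling the libraries. CRF genes, nitrate reductase and SMXL genes, transposon genes, miRNA targets, pseudogenes and phased loci are below 0 under all 5 scalings; MIR genes are at 0.01 scaled to their own counts; nuclear rRNA genes turn from 0.81 to -0.08 scaled to total counts.

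Positive interactions were frequent among structural RNA and photosynthesis genes. Nuclear tRNA genes were positive at 416 of 568 (73.2%, against 19.8% of all genes) and negative at 0 by edgeR's test, with a median of 0.97, or 1.28 relative to all genes. RDR6 loss lowered 462 of them and raised 0 with decay intact, and lowered 57 and raised 239 with decay defective. Among all genes tested those shares were 15.3% and 21.3%, then 27% and 14.4%. Both effects were read with TMM only, and the rise with decay defective depended on it. Of all counts, nuclear tRNA genes held 8.79% to 9.24% in ein5-1 ski2-3 libraries and 8.44% to 8.78% in triple-mutant libraries. Scaled to total counts their median was 0.08, with 146 positive and 21 negative. The 4 nuclear rRNA genes were all positive, with a median of 0.81 that turned to -0.08 scaled to total counts, with 2 positive and 2 negative. With TMM, RDR6 loss lowered all 4 with decay intact and raised 2 with decay defective. The 18S rRNA gene AT2G01010 had 285900, 285700 and 277800 CPM in Col-0, against 126400, 127400 and 149100 CPM in ein5-1 ski2-3, 182700, 186400 and 174700 CPM in rdr6-11 and 212400, 217500 and 221600 CPM in the triple mutant. The wild type was highest and the double mutant lowest, and the 4 genotypes did not overlap. Its interaction was 1.30 ± 0.08 (SE; edgeR adjusted p = 5.54e-18), and the near-identical AT3G41768 had the same value. The tRNA-Arg genes AT2G25400, AT2G45020, AT4G34035 and AT5G03775 stood at 2.04, 2.03, 2.11 and 2.08, and they share sequence, so they are not independent.

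Photosynthesis genes were positive at 22 of 24 (91.7%, against 19.8% of all genes) and negative at 0, by edgeR's test, with a median of 1.24, or 1.55 relative to all genes. With TMM, RDR6 loss lowered 21 of them with decay intact and raised 20 with decay defective, against 15.3% and 14.4% of all genes. Their median stayed positive under each scaling, from 0.34 scaled to total counts, with 9 calls, to 2.17 scaled to MIR genes, with 24. RCA (AT2G39730), the activase of Rubisco, had 147, 149 and 139 CPM in Col-0, compared with 65.8, 69.5 and 70.9 CPM in ein5-1 ski2-3, 87.5, 98.9 and 86.7 CPM in rdr6-11, and 138, 126 and 139 CPM in the triple mutant. The double mutant was lowest and the triple mutant reached the edge of the Col-0 range. Its interaction was 1.63 ± 0.16 (SE; edgeR adjusted p = 1.64e-12). LHCB6, a light-harvesting antenna protein, was at 1.86, RBCS1A, a small subunit of Rubisco, at 1.48 and GAPB, an enzyme of the Calvin cycle, at 1.56, all under every scaling (adjusted p = 1.01e-07, 1.42e-12 and 3.57e-08). RCA and LHCB6, like TAS1B, TAS1C and MIR408 above, overlap another gene, whose reads cannot be separated without strand. Read length was not used here, so siRNAs and fragments of mRNA, tRNA or rRNA cannot be told apart.

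The other leading positive genes had the same order of genotypes in TMM CPM. AT5G66530, which overlaps another gene, had 281 ± 4.40, 93.4 ± 15.6, 121 ± 10.8 and 209 ± 13.8 CPM in Col-0, the double, the single and the triple mutant (SD, n = 3, 2, 3 and 3), an interaction of 2.40 ± 0.15 (SE; edgeR adjusted p = 2.53e-18). GSTT2 and GSTT3, near-identical glutathione transferase genes, were both at 1.91. AT2G07706 was at 1.89, AT3G43990 at 1.76 and the pseudogene AT5G34790 at 2.07. Genes raised only where decay was defective were fewer. BT2 (AT3G48360), a BTB-domain scaffold protein, had 11.7, 10.6 and 12.4 CPM in Col-0, against 5.42, 4.19 and 3.00 CPM in ein5-1 ski2-3, 17.4, 9.54 and 17.5 CPM in rdr6-11, and 24.99, 27.6 and 20.1 CPM in the triple mutant. The double mutant was lowest and the triple mutant highest, while Col-0 and rdr6-11 overlapped. Its interaction was 2.19 ± 0.35 (SE; edgeR adjusted p = 1.1e-06), and that of FBA5, a fructose-bisphosphate aldolase, was 2.84 ± 0.47 (adjusted p = 1.96e-06). Both kept the call under every scaling. Of 5 ethylene signalling genes tested, 1 was positive, a share near the 19.8% of all genes: EBF2, the F-box gene that limits EIN3, at 0.91 ± 0.32 (adjusted p = 0.017), and it was not called scaled to total counts.

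Called coding genes differed in gene structure from the coding genes tested, as a description without a test. Genes with a single exon made up 19.1% of the 4201 coding genes tested, 27.5% of the 670 negative ones and 29.7% of the 165 that were negative under all 5 scalings (3.93%), but 10.6% of the 822 positive ones (19.6%) and 11.6% of the 112 that were positive under all 5 scalings (2.67%). The median number of exons was 4 in all tested, 3 in negative and 5 in positive genes, while median exonic length was 1858, 1742 and 1753 nt. The sign of the interaction on the linear CPM scale matched that on the log2 scale in 2285 of 2286 negative and 1428 of 1431 positive genes. The exceptions were AT1G63630 among negative genes and TAS1B, TAS2 and AT1G69570 among positive ones.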

How the data were processed

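The authors deposited 1 table of read counts, whole numbers with a row for each gene and a column for each library. TAIR10 is the build in the submitters' processing notes, which also list DESeq, Bowtie, Bowtie2 and CASAVA 1.8.2 but give no roles. Read length, strand and the handling of reads with several matches are not given in the sources used here. Of 30926 genes, 30403 matched TAIR10.1, which gave names, classes, positions and sequences.

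Counts were fitted in R 4.3.3 with edgeR 4.0.16 as a means model of the 4 genotypes over 11 samples, with replicates 1 and 2 of ein5-1 ski2-3 summed. The plan named this sum in case their chi-square showed only sampling noise. Genes passed filterByExpr (minimum count 10, minimum total 15) and libraries were scaled by TMM, with factors from 0.748 in Col-0 to 1.39 in ein5-1 ski2-3. Quasi-likelihood F tests were 2-sided, with Benjamini-Hochberg adjustment over all 7219 genes. Levels are TMM CPM. Nothing says how separate the plants of the replicates were, so p-values cover only the spread among these samples, possibly a technical one. Alternatives were 4 other scalings, 2 other filters, DESeq2 1.42.0, 12 separate libraries, a replicate block and leaving out libraries. Per library, the gene at the median had 1 to 3 counts. Counting intervals are 95% and exact, and with floors of 3 counts per group they cover counting error only. The steps were tested on simulated data.

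Members, lists and tests were chosen with earlier results of these data known. Genes were mainly drawn from the 12 smallest p-values of each sign among genes changed at least 2-fold and the first 3 of each shape of interaction. TAS loci, the 4 MIR genes with the smallest p and called list members were added. Some genes of the shapes and some called list members are not described. Of these, ARF8, SCL6, SCL22, SCL27, SULTR2;1, SMXL2, SMXL7 and PAI1 lost the call when libraries were scaled to MIR genes. A list's count is over the members that passed the filter.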

Additional observations from a re-analysis of the deposited data

Results flagged for a closer look

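The effect of RDR6 loss differed between plants with intact and with defective decay, by edgeR's quasi-likelihood test of the difference itself, at 2286 genes in the negative and 1431 in the positive direction. The 12 genes of each sign with the smallest p are listed here with their log2 interaction. On the negative side AT3G44570 stood at -7.77, AT3G44580 at -7.81, AT3G30820 at -4.68 and AT2G14000 at -5.19, the 4 retrotransposon-like genes. SMXL5 was at -9.51, GAE6 at -3.06, MIR408 at -2.82, MIR156c at -1.94, AT2G08986 at -1.84, MIR398b and AT5G14550 at -1.66 and MIR398c at -1.65.

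On the positive side AT5G66530 stood at 2.40, the 18S rRNA genes AT2G01010 and AT3G41768 at 1.30, GSTT2 and GSTT3 at 1.91, AT3G43990 at 1.76, AT2G07706 at 1.89 and AT5G34790 at 2.07. The tRNA-Arg genes AT2G25400, AT2G45020, AT4G34035 and AT5G03775 stood at 2.04, 2.03, 2.11 and 2.08. The genes of both sets kept their call under the 5 scalings.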

How the results depend on the processing

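Scaling moved the balance of signs most. With total counts as the scale there were 3431 negative and 331 positive genes and a median of -1.21, and with MIR genes as the scale 433 and 2624 and a median of 0.61. With RLE size factors and with TMM without structural and organelle RNA the median was -0.18 and 0.0048. DESeq2 gave 1413 negative genes and a median of -0.19. Without single libraries, or replicates 1 and 2 of ein5-1 ski2-3 together, which gave the lowest negative count, the negative count ranged from 1585 to 2195, the positive count from 1288 to 1921 and the median from -0.35 to -0.0661. Same-numbered libraries of different genotypes did not vary together (18 pairs, correlations of -0.10 to 0.04), so the numbers do not pair them. With the replicate block on 12 libraries the counts were 2261 and 1422 and the median -0.34. For the genes named by p-value and the TAS loci and MIR genes, 978 alternative values kept their direction and side of the threshold, 25 lost the call and 1 gained it (TAS3C, -2.37 scaled to total counts), and TAS1A reversed to -0.12 scaled to total counts (adjusted p = 0.654). Of 68 called list members, 26 kept the call in all 22 alternatives and 42 lost it in at least 1, 40 of them under a scaling. The cause of these changes was not tested. Depth limits weakly covered genes, since a library held 1 to 3 counts for the gene at its median.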
